A study of Mus musculus with 6 samples.

Results

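The 10 genes described here are the Cdk inhibitors Cdkn1a, Cdkn1b, Cdkn1c, Cdkn2a, Cdkn2b and Cdkn2c, the D-type cyclins Ccnd1, Ccnd2 and Ccnd3, and Rb1, the substrate on which they converge. They were chosen by symbol, and each matched 1 of the 43274 genes in the deposited tables. RNA was sequenced from hair follicle bulge stem cells (SCs), sorted by FACS as CD34+ cells with high α6 integrin from mouse skin at postnatal day 21. Of the 6 libraries, 3 came from control mice (ILK fl/+ with K5-Cre) and 3 from ILK-K5 mice (ILK fl/fl with K5-Cre), so that 1 or 2 Ilk alleles were floxed. Ilk encodes integrin-linked kinase, an adaptor between integrins and actin. Cre was driven by the keratin 5 promoter, which is active throughout the basal epidermis and its appendages, so deletion was not limited to the bulge. Both genotypes carried Cre, and the controls were littermates with 1 floxed allele in place of wild-type mice. Both sexes were used, without regard to genotype. The comparison asks how the RNA of the G1 brake and accelerator genes differed in bulge SCs without ILK.

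In G1, D-type cyclins bind Cdk4 or Cdk6, and the active kinases phosphorylate the Rb1 protein, which then releases E2F factors that transcribe S phase genes. The INK4 inhibitors (Cdkn2a, Cdkn2b and Cdkn2c) bind Cdk4 and Cdk6 and block their pairing with cyclin D, whereas the Cip/Kip inhibitors (Cdkn1a, Cdkn1b and Cdkn1c) bind cyclin-Cdk complexes and mainly restrain Cdk2. Bulge SCs are quiescent between hair cycles and enter the cell cycle in short bursts when a new hair is made. Several of these proteins are controlled by degradation as well as by transcription, so the RNA levels given here are not protein levels.

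Upstream sequences are shown for 4 inhibitors, because Cdkn2a and Cdkn2b are neighbours of which only Cdkn2b had more than 1 read in any library, and because Cdkn1a and Cdkn1b were the inhibitors with the highest levels. They come from RefSeq for GRCm38.p6, which gave a promoter for 6 of the 10 genes, and each was cut so that it holds no exon base of the gene in GENCODE release M21. The stretches of Cdkn2a, Cdkn2b and Cdkn1b end at the outer end of the gene, and that of Cdkn1a lies inside the gene, before its inner start. RefSeq also gives an inner start for Cdkn2a and an outer start for Cdkn1a, which are not shown. Capitals mark the GC box, GGGCGG on either strand, the letters to which Sp1-family factors bind. The sequences run 5′ to 3′ on the strand of the gene.
Cdkn2a, upstream start, chr4:89294654-89294803, minus strand: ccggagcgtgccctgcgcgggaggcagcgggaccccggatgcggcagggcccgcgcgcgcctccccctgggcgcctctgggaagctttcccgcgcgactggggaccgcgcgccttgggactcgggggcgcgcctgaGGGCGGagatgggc
Cdkn2b, chr4:89311040-89311189, minus strand: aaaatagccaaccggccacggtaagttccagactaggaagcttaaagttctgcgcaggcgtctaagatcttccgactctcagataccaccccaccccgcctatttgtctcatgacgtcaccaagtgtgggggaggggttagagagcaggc
Cdkn1a, inner start, chr17:29093619-29093768, plus strand: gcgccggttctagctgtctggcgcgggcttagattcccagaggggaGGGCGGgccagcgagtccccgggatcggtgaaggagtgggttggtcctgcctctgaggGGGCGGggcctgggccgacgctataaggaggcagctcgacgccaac
Cdkn1b, chr6:134920251-134920400, plus strand: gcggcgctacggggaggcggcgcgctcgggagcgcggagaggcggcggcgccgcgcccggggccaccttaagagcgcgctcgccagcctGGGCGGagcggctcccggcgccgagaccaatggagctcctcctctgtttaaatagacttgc
In the 250 bases before each start, the GC box occurred 2 times for the upstream start of Cdkn2a, of which 1 lies in the stretch shown, 2 times for the inner start of Cdkn1a and 1 time for Cdkn1b. It was not in the windows of Cdkn2b, of the inner start of Cdkn2a or of the outer start of Cdkn1a. Of 32544 mouse promoter windows of this length, 32.96% held at least 1 GC box. CpG dinucleotides numbered 40 at the upstream and 7 at the inner start of Cdkn2a, 19 at the inner and 2 at the outer start of Cdkn1a, 28 for Cdkn1b and 12 for Cdkn2b, against a median of 6 over all windows.

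Library depth, as reads assigned to genes, ranged from 8228019 to 11969072, and 1 read corresponded to 0.726 to 1.52 normalized counts, which are reads divided by the size factor of the library. Mitochondrial genes took 11.5% to 27.6% of the reads. Ilk itself had only 11, 11 and 53 reads in the controls and 13, 40 and 30 in ILK-K5, and it shares 89.7% of its exon bases with Taf10 or Rrp8 on the opposite strand, so that it gave no check of the genotypes. Cd34, on whose protein the cells were sorted, had 2009, 947 and 1960 normalized counts in the controls and 296, 560 and 433 in ILK-K5, and it was the only one of 10 bulge markers that passed the test (log2 fold change -1.90, adjusted p = 0.0239, limma). The bulge marker Krt15 was detected at 28999 to 97406 normalized counts in the controls and 10084 to 37668 in ILK-K5. Markers of several other cell types were higher in the ILK-K5 libraries, but 0 mast cell, endothelial or melanocyte markers passed as higher. Of these 3 lists, only 1 of 6, 3 of 6 and 5 of 7 markers were tested. The tested mast cell marker, Kit, had 0, 3.04 and 0 normalized counts in the controls and 21.6, 20.1 and 22.4 in ILK-K5 (adjusted p = 0.0578, limma). All 15 of 15 macrophage markers passed as higher, with a sum of 118 to 207 normalized counts in the controls and 15413 to 23819 in ILK-K5, and none was at 0 in every control. In addition 5 of 6 general leukocyte markers (sums of 421 to 899 against 4864 to 5815), 5 of 8 markers of Langerhans and dendritic cells (537 to 1620 against 26513 to 39715) and 1 of 4 tested fibroblast markers (703 to 779 against 1532 to 2493, with Lum at 0 in the controls) passed as higher. Of the Langerhans and dendritic list, Epcam, Itgax, H2-Aa, H2-Ab1 and Cd74 passed. Cd207, Flt3 and Zbtb46 did not (adjusted p = 0.148, 0.750 and 0.481, limma). Replicate 1 of each genotype carries another number in its sample description than replicates 2 and 3, and the labels do not explain these numbers.

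Genes were tested where they averaged 10 or more normalized counts, which 16368 did, and of these 2.93% were called higher and 0.599% lower in ILK-K5 at an adjusted p of at most 0.05 (limma on log2 of the normalized count plus 1). Of the 10 genes, 9 reached this level and were tested, and 0 of the 9 were called in either direction. At an unadjusted p under 0.05 there was 1, Ccnd1, where 12.3% of all tested genes lay. DESeq2 on the recovered reads called 1 of them lower, again Ccnd1, against 1.66% of all tested genes, and edgeR called 0, against 0.532%. Their log2 fold changes were positive for 4 and negative for 5, with a median of -0.18 beside 0.0054 for all genes tested. The labels do not say whether the libraries of a genotype came from separate mice, so p-values measure only the spread between these libraries, which may be technical.

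Ccnd1 encodes cyclin D1, the D-type cyclin that growth factor and Wnt signals raise in many epithelia. Its normalized counts were 1779, 1177 and 1181 in the controls and 684, 751 and 583 in ILK-K5. Every ILK-K5 library was below every control library, which held for 6.95% of all tested genes and for no other member. The opposite order, all ILK-K5 libraries above all controls, held for 10.9% of tested genes and for 0 members. The means were 1379 ± 347 and 673 ± 84.9 normalized counts (SD, n = 3 each), a 2.02-fold lower level in ILK-K5 with a log2 fold change of -1.01 (SE 0.27, 95% interval -1.62 to -0.40). The adjusted p was 0.0899 with limma and 0.086 with edgeR, both over the threshold, and 0.0215 with DESeq2, under it. It was 0.0232 with a term for the number in the sample description, a fit that called 286 of 16368 genes lower in place of 98. The values rest on 4245 reads in the controls and 2173 in ILK-K5, so counting error is small beside the spread between libraries. The highest value, in control 1, carried part of the difference: without that library the log2 fold change was -0.82 and the adjusted p 0.194. Without ILK-K5 library 3 they were -0.91 and 0.410.

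Ccnd1 lies on chromosome 7 from 144929931 to 144939925 on the minus strand of GRCm38, and 23.4% of its exon bases are also exon bases of LTO1 on the plus strand. LTO1 had 119, 135 and 140 normalized counts in the controls and 148, 145 and 155 in ILK-K5, the opposite order to Ccnd1. In RNA of a sorted population, fewer cells that express a gene and less RNA per cell cannot be told apart. The macrophage markers, and most of the general leukocyte and of the Langerhans and dendritic markers given above, moved with the genotype in the same libraries. The part of these markers' cells in the difference of Ccnd1 was not tested. When the libraries were scaled to 8 basal keratinocyte markers, a choice made after seeing the data, the log2 fold change of Ccnd1 was -0.91 with an adjusted p of 0.155, where the median of all genes moved to 0.11.

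**Figure D1:**
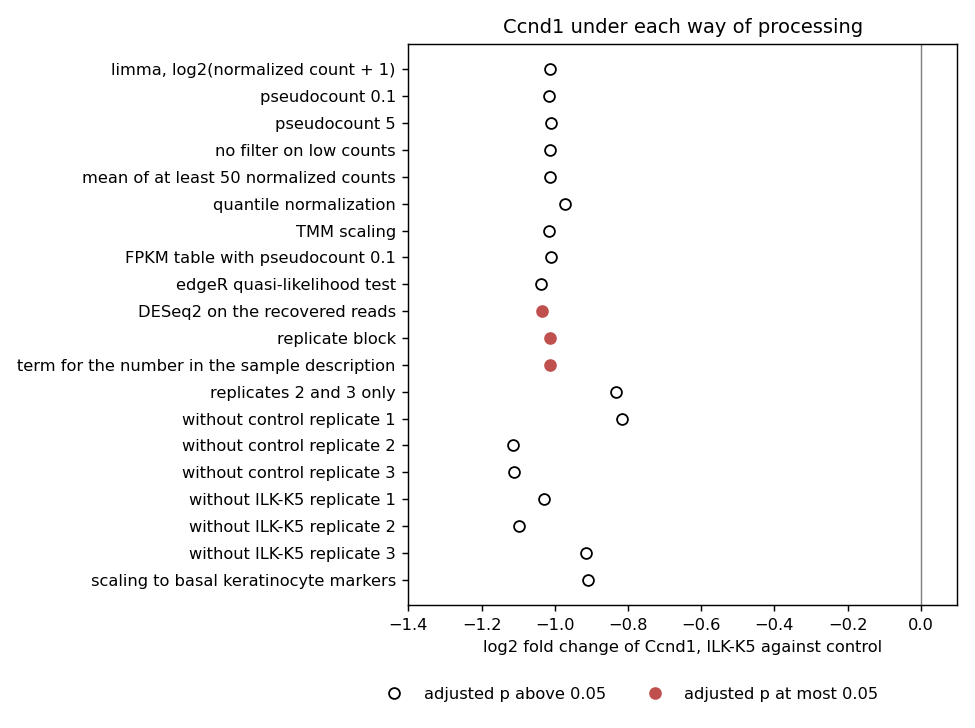
Log2 fold change of Ccnd1 between ILK-K5 and control (horizontal axis) under each way of processing the data (vertical axis), with filled points where the adjusted p was at most 0.05 and open points elsewhere. All points lie between -1.11 and -0.82, and 3 of them are filled: DESeq2, the replicate block and the term for the number in the sample description.

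Ccnd2 encodes cyclin D2 and had the highest FPKM of the D-type cyclins in 5 of 6 libraries, with control 1 as the exception. It had 1793, 2082 and 2361 normalized counts in the controls and 1288, 1870 and 1783 in ILK-K5. Only ILK-K5 libraries 1 and 3 lay below all controls, and ILK-K5 library 2 lay between controls 1 and 2. The log2 fold change was -0.35 (SE 0.26, 95% interval -0.94 to 0.25, adjusted p = 0.750), an interval that still holds a 1.92-fold lower level. Ccnd3, which encodes cyclin D3, had 91.7, 85.2 and 318 normalized counts in the controls and 59.2, 170 and 146 in ILK-K5. Control 3 stood far above the other two controls, and the genotypes overlapped. The log2 fold change of Ccnd3 was -0.25 (SE 0.59, 95% interval -1.58 to 1.08, adjusted p = 0.940), and without control 3 it was 0.36.

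Cdkn1a encodes p21, the Cip/Kip inhibitor that p53 induces and that also rises in differentiating keratinocytes. Its normalized counts were 221, 426 and 1035 in the controls and 586, 865 and 684 in ILK-K5. The controls spanned 4.69-fold and the ILK-K5 libraries 1.47-fold, and all ILK-K5 values lay inside the range of the controls. The means were 561 ± 424 and 712 ± 141 normalized counts (SD, n = 3 each), with a log2 fold change of 0.61 (SE 0.50, 95% interval -0.51 to 1.73, adjusted p = 0.771). Control 3, which had the most Cdkn1a, also had the highest sum of differentiated keratinocyte markers, with 11086, 15815 and 24477 normalized counts in controls 1 to 3 against 5500, 8876 and 7550 in ILK-K5. Of that list, 2 of the 8 tested markers passed as lower in ILK-K5, and its part in the Cdkn1a values was not tested. Control 3 was not set apart by differentiated markers alone. In controls 1 to 3 the bulge stem cell markers summed to 73794, 92987 and 183107 normalized counts. The basal keratinocyte markers summed to 88348.5, 73159 and 113664 in the same controls. Leaving out control 3 moved the log2 fold change of Cdkn1a to 1.19 (adjusted p = 0.135), and leaving out control 1 moved it to 0.081.

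Cdkn1b encodes p27, which holds cyclin E-Cdk2 inactive in resting cells and is removed by the ubiquitin ligase subunit Skp2. Its normalized counts were 538, 293 and 640 in the controls and 411, 514 and 590 in ILK-K5. The means, 491 ± 178 and 505 ± 90.0 (SD, n = 3 each), were close, and 1633 reads were counted in the controls and again 1633 in ILK-K5. The log2 fold change was 0.10 (SE 0.34, 95% interval -0.67 to 0.87, adjusted p = 0.961), so a difference of up to 1.83-fold higher or 1.59-fold lower in ILK-K5 lies inside the interval. None of the exon bases of Cdkn1b is shared with another gene. Skp2 had 83.0, 85.2 and 64.6 normalized counts in the controls and 118.4, 104.1 and 111.05 in ILK-K5, with an adjusted p of 0.668.

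Cdkn1c encodes p57, the Cip/Kip inhibitor that is expressed from the maternal allele. It had 2, 21 and 25 reads in the controls and 13, 14 and 6 in ILK-K5, which gives 1.93, 31.9 and 18.1 normalized counts against 14.8, 10.8 and 5.84. The genotypes overlapped, and control 1 was the lowest library. Reads were few, and the normalized counts of the controls spanned 16.5-fold. The log2 fold change of -0.18 had a 95% interval of -2.36 to 2.0 (SE 0.97, adjusted p = 0.975). That interval runs from a 5.13-fold lower to a 4.01-fold higher level in ILK-K5. DESeq2 gave -0.71 (adjusted p = 0.927) and edgeR -0.70 (adjusted p = 0.889). Without control 1 the limma value was -1.21. Of its exon bases, 30.7% are shared with a transcript on the other strand.

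**Figure D2:**
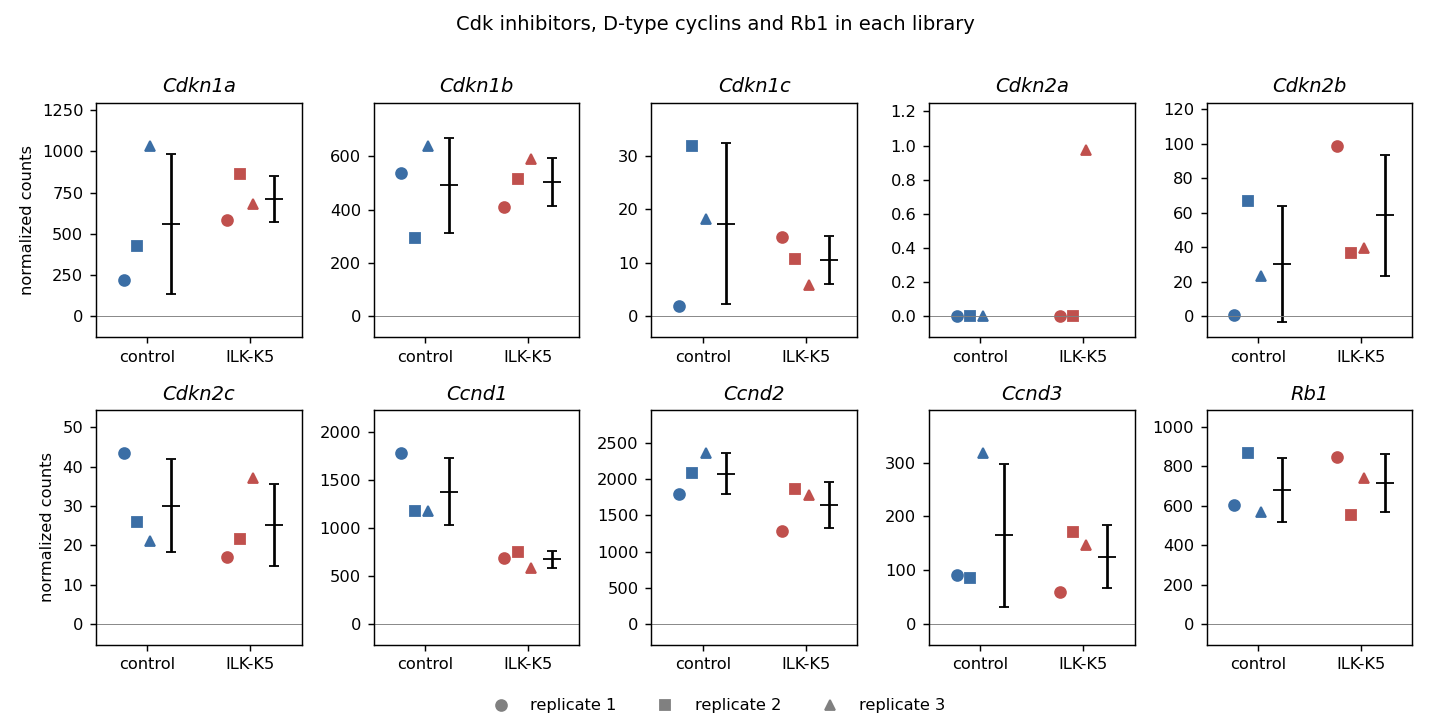
Normalized counts (vertical axes, each from below 0 to its own maximum) of the 10 genes in control (blue) and ILK-K5 (red) libraries, with a shape for each replicate and the mean ± SD of 3 libraries as a black bar, left out for Cdkn2a. The red points lie below all blue points for Ccnd1, at 583 to 751 against 1177 to 1779, and overlap with the blue points for the others.

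The INK4 genes were all at low levels. Cdkn2a encodes p16 and, from the upstream first exon, p19Arf, and both are markers of senescence and oncogenic stress. It had 0 reads in 5 libraries and 1 read in ILK-K5 library 3, which is under the floor of 3 reads in both genotypes, so no fold change was computed. A count of 0 allows up to 3 reads per library, counting error only. Cdkn2b, which encodes p15 and responds to Tgf-β in keratinocytes, lies upstream of Cdkn2a on chromosome 4, with 11645 bases between them. It had 1, 44 and 32 reads in the controls and 87, 48 and 41 in ILK-K5, or 0.965, 66.9 and 23.2 normalized counts against 99.0, 37.0 and 39.9. ILK-K5 library 1 was the highest and control 1 the lowest, and the other 4 libraries overlapped. The log2 fold change was 1.86 (SE 1.14, 95% interval -0.71 to 4.44, adjusted p = 0.642). On the recovered reads of the same libraries it was 0.96 with DESeq2 (adjusted p = 0.856) and 0.98 with edgeR (adjusted p = 0.836). The limma value rests on replicate 1 of the genotypes: without control 1 it was 0.41, and with replicates 2 and 3 alone it was -0.040. Cdkn2c encodes p18, an INK4 inhibitor found in many cycling tissues. Its reads numbered 45, 17 and 29 in the controls and 15, 28 and 38 in ILK-K5, with a log2 fold change of -0.25 (SE 0.55, 95% interval -1.50 to 0.99, adjusted p = 0.934).

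Rb1 encodes the retinoblastoma protein, which holds E2F factors inactive until it is phosphorylated. Its normalized counts were 602, 867 and 567 in the controls and 848, 555 and 739 in ILK-K5, and the libraries of both genotypes covered the same range. The log2 fold change was 0.078 (SE 0.29, 95% interval -0.57 to 0.73, adjusted p = 0.965). Of its exon bases, 14.9% are shared with Lpar6 and Rcbtb2, whose values overlapped between the genotypes too. The relatives of Rb1 in the same pocket protein family were also not called, Rbl1 with a log2 fold change of -0.23 (adjusted p = 0.911) and Rbl2 with -0.33 (adjusted p = 0.725).

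**Figure D3:**
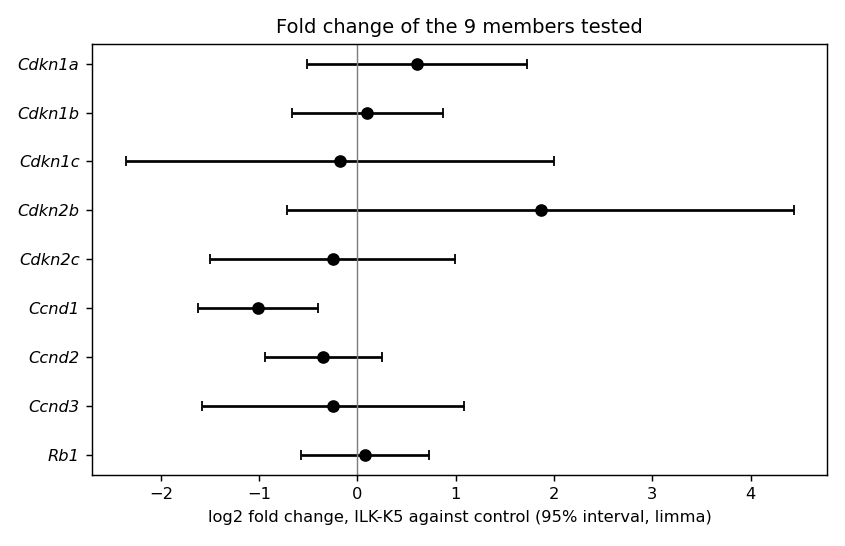
Log2 fold change of the 9 tested genes between ILK-K5 and control (horizontal axis), with the 95% interval from limma before any adjustment for the number of genes tested. The interval of Ccnd1, from -1.62 to -0.40, is the one that leaves out 0, and that of Cdkn2b, from -0.71 to 4.44, is the widest.

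Levels between genes were compared in FPKM, which scale reads to transcript length and library size. In the controls Ccnd2 (37.4 ± 5.11 FPKM, SD, n = 3) and Ccnd1 (36.9 ± 9.27) led, followed by Cdkn1a (25.9 ± 19.5), Rb1 (11.6 ± 2.79) and Cdkn1b (11.1 ± 4.01). Cdkn2b (2.24 ± 2.47), Ccnd3 (1.93 ± 1.55), Cdkn2c (1.15 ± 0.450) and Cdkn1c (0.921 ± 0.797) came next, and Cdkn2a was at 0. Neighbours in this order overlapped except for Cdkn1b against Cdkn2b and Cdkn1c against Cdkn2a. In ILK-K5 Cdkn1a (32.8 ± 6.51 FPKM) and Ccnd2 (29.6 ± 5.65) led and overlapped. Ccnd1 (18.0 ± 2.27) came after them and overlapped neither Ccnd2 above it nor Rb1 (12.2 ± 2.52) below it. Within libraries, Ccnd1 reached 1.48, 0.840 and 0.743 of the FPKM of Ccnd2 in the controls and 0.790, 0.597 and 0.486 in ILK-K5, and these ratios overlapped, with control 1 the only library in which Ccnd1 was the higher.

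Summed over the family, D-type cyclins had 80.9, 69.9 and 77.8 FPKM in the controls and 42.1, 55.7 and 49.3 in ILK-K5. The sums did not overlap, with means of 76.2 ± 5.66 and 49.1 ± 6.79 FPKM (SD, n = 3 each), a ratio of 0.644. Among single tested genes, 6.95% had every ILK-K5 library below every control. Of the D-type cyclins only Ccnd1 did, while Ccnd2 and Ccnd3 overlapped. Ccnd1 made up 58.8%, 45.0% and 40.6% of the sum in the controls and 43.4%, 36.0% and 31.6% in ILK-K5, and Ccnd2 most of the rest. These shares overlapped. Cip/Kip inhibitors summed to 22.4, 27.9 and 63.1 FPKM in the controls and 37.1, 52.0 and 45.2 in ILK-K5, and the range of the controls covered that of ILK-K5. INK4 inhibitors summed to 1.73, 5.91 and 2.51 FPKM against 7.94, 3.55 and 4.44. Within the Cip/Kip family Cdkn1a held 45.5%, 70.3% and 75.6% of the sum in the controls and 72.9%, 76.7% and 69.9% in ILK-K5. The 6 inhibitors together reached 0.299, 0.484 and 0.844 of the D-type cyclin sum in the controls and 1.07, 0.997 and 1.0 in ILK-K5. The sums and ratios are descriptions of these libraries and carry no test, since the genes were combined with their values known. Ccnd1 and Ccnd2 made up nearly all of the D-type cyclin sum, and Cdkn1a and Cdkn1b nearly all of the Cip/Kip sum. Cdkn2b and Cdkn2c made up nearly all of the INK4 sum.

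**Figure D4:**
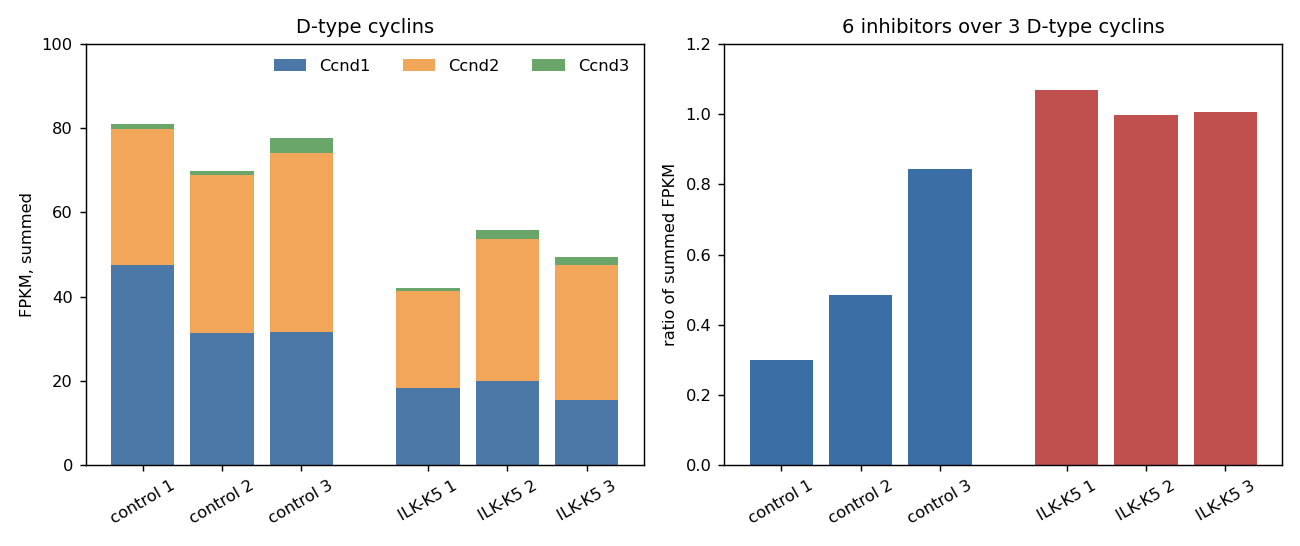
Left, FPKM of Ccnd1, Ccnd2 and Ccnd3 stacked for each library. Right, the summed FPKM of the 6 inhibitors divided by that of the 3 D-type cyclins, with controls in blue and ILK-K5 in red. The stacks reach 69.9 to 80.9 FPKM in the controls and 42.1 to 55.7 in ILK-K5, and the ratio is 0.299 to 0.844 in the controls and 0.997 to 1.07 in ILK-K5.

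Other genes of the pathway were read in the same fit. Of the 9 kinases, E-type cyclins and activators of G1, 0 were called, with a median log2 fold change of -0.22. Cdk6, a partner of the D-type cyclins, came closest, at 354, 470 and 776 normalized counts in the controls and 601, 746 and 1019 in ILK-K5 (log2 fold change 0.61, adjusted p = 0.604). For Cdk4, their other kinase partner, the log2 fold change was 0.31 (adjusted p = 0.824), for Ccne2 it was -0.71 (adjusted p = 0.610) and for Mnat1 -0.47 (adjusted p = 0.662). Of 7 further Cdk inhibitors and Cdk-binding modulators 0 were called, with a median of 0.064, and Cables1 (-0.52), Cdk2ap1 (0.44) and Cdk2ap2 (0.62) had the smallest p. Of 17 Rb-family, E2F and Dp genes 0 were called, with a median of 0.050, and E2f3, an activating E2F, had the smallest p among them (log2 fold change 0.99, adjusted p = 0.553).

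Of 20 S phase and mitosis genes that E2F controls, 0 were called, 1 had an unadjusted p under 0.05 and the median log2 fold change was -0.078. That gene was Tyms, which makes thymidylate for DNA synthesis, at 1098, 642 and 537 normalized counts in the controls and 454, 357 and 356 in ILK-K5 (log2 fold change -0.90, adjusted p = 0.240). Cdc20, which activates the anaphase-promoting complex, followed with 1.03 (adjusted p = 0.612) and the mitotic kinase Plk1 with 0.82 (adjusted p = 0.614). The sum of the 20 genes overlapped between the genotypes, at 15083, 9741 and 6327 normalized counts in the controls and 11631, 8101 and 6560 in ILK-K5. In both genotypes replicate 1, which has its own number in the sample description, was the highest. Control 1 was also the control with the least Cdkn1a, Cdkn1c, Cdkn2b and Ccnd2 and the most Ccnd1 and Cdkn2c. ILK-K5 library 1 shared only part of this order. It had the least Cdkn1a and Ccnd2 of its genotype, but the most Cdkn1c and Cdkn2b and the least Cdkn2c.

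Of 14 genes for the turnover of p21, p27 and D-type cyclins 0 were called, with a median of 0.021. For Cul1, a scaffold of the ligase that Skp2 belongs to, the log2 fold change was -0.51 (adjusted p = 0.524), and for Cryab, a cofactor in cyclin D1 degradation, it was -0.93 (adjusted p = 0.543). Of 18 transcriptional regulators of the members, 1 was called higher and 0 lower, with a median of 0.16. It was Runx1, a factor that promotes hair follicle stem cell activation and represses Cdkn1a, at 1184, 1308 and 1332 normalized counts in the controls and 4125, 2406 and 3403 in ILK-K5 (log2 fold change 1.34, SE 0.27, adjusted p = 0.0299). For Foxo1, which activates Cdkn1b, the log2 fold change was 0.80 (adjusted p = 0.249), and for Nfatc1, which represses Cdk4 in bulge SCs, it was -0.60 (adjusted p = 0.411). Of 16 p53 target genes 1 was called higher and 0 lower, with a median of 0.17. This was Plk2, a kinase induced by stress, at 115, 128 and 204 normalized counts in the controls and 443, 414 and 344 in ILK-K5 (log2 fold change 1.46, SE 0.32, adjusted p = 0.0385). Runx1 and Plk2 are also expressed in blood cells, whose markers were higher in the same libraries, and the part of those cells in both values was not tested.

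Among 11067 genes that averaged 50 or more normalized counts, those whose centred log2 profile over the 6 libraries lay near to that of Ccnd1 included B3galt6 and Gse1, with root mean square differences of 0.113 and 0.158 on the log2 scale. B3galt6, for example, had 109.99, 79.1 and 88.5 normalized counts in the controls and 45.5, 58.6 and 39.9 in ILK-K5. Nearest to Cdkn2b, the member with the next smallest p, were Kif26b (0.606), Olfml2a (0.632) and ENSMUSG00000103674 (0.676), all further away than those of Ccnd1. These likenesses rest on the same 6 libraries and describe them only.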

How the data were processed

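The authors sorted bulge SCs by FACS, isolated RNA with TRIzol LS, amplified it as cDNA and made Nextera XT libraries, which were sequenced as read pairs. According to the submitters' processing notes and the study's methods, TopHat2 2.0.14, Bowtie2 2.2.4 and DESeq2 1.6.3 were used with GRCm38. The program that counted reads per gene, and whether it used strand, are not given in the sources used here. The authors deposited normalized counts, a signal of reads divided by 1 size factor per library, and FPKM, which equal that signal times 1 constant per gene. All values (100%) were whole multiples of the value of 1 read (tolerance 0.01 reads), so reads were recovered. The deposited tables of the authors' own comparison hold fold changes and p-values and were not used. Of 43274 genes, 97.3% had a symbol in GENCODE release M21 for GRCm38.

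The 3 control and 3 ILK-K5 libraries were compared with limma 3.58.1 (lmFit, then eBayes with trend, under R 4.3.3). Input was log2(normalized count + 1) of the 16368 genes that averaged 10 or more normalized counts, with Benjamini-Hochberg adjustment over all of them and calls at 0.05. Tests are two-sided. Fold changes are on this scale, and for low genes they depend on the 1 that is added. The fit was run on simulated counts with the same dispersion for every gene and no batch. That run does not show how the fit behaves at the spread of these libraries. Alternatives, with their effect given in the closing section, included edgeR 4.0.16 and DESeq2 1.42.0 on recovered reads. Further software was Python 3.11.15, pandas 2.3.3 and matplotlib 3.10.9.

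The 10 genes and the lists were chosen with earlier results of these data known. Named genes are the 10 members, of each pathway list every called gene or otherwise the 3 with the smallest p, and 3 genes of nearest profile for the 2 members with the smallest p. A gene that meets this rule is not reported here. Cdk4, Rbl1 and Rbl2 lie outside this rule and were chosen for their roles after values were seen, as were Ilk, Cd34, Krt15 and the genes that share exon bases with members. T cell, neutrophil, mast cell, endothelial and melanocyte markers were read too: 1, 2, 0 and 0 of the first 4 lists were called higher, and 1 melanocyte marker lower. In this order the lists had 5, 4, 1, 3 and 5 tested markers.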

Additional observations from a re-analysis of the deposited data

How the results depend on the processing

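The 9 tested members gave 168 values under 19 alternatives, of which 152 kept their direction and their side of the threshold. The number of members called rose from 0 to 1 with DESeq2, the replicate block and the term for the number in the sample description. Each time it was Ccnd1, with log2 fold changes of -1.04, -1.01 and -1.01 and adjusted p of 0.0215, 0.0273 and 0.0232. Calls also rose over all 16368 tested genes. In the same order these fits called 271, 269 and 286 genes lower, against 98 in the main fit. They called 780, 848 and 846 higher, against 479. Over all alternatives the adjusted p of Ccnd1 ran from 0.0215 to 0.410, and it was called in 0 of 6 fits that left out a library (-1.11 to -0.82). With replicates 2 and 3 only, Cdkn2b (-0.040), Cdkn2c (0.27) and Rb1 (-0.13) turned their sign. Leaving out each library in turn gave -0.23 to 0.33 for Cdkn1b, -1.21 to 0.53 for Cdkn1c, -0.56 to 0.036 for Cdkn2c, -0.58 to 0.36 for Ccnd3 and -0.057 to 0.27 for Rb1. The Cip/Kip ratio of summed FPKM ran from 0.983 to 1.78, the highest without control replicate 3. Cdkn2b moved from 1.86 to 0.96 with DESeq2 and 0.98 with edgeR, and from 2.16 to 1.34 between pseudocounts of 0.1 and 5. The cause of these changes was not tested. A mean of at least 50 normalized counts leaves no value for Cdkn1c, Cdkn2b and Cdkn2c. Deviations from the genotype means correlated at 0.53, 0.020 and 0.31 between replicates with numbers 1, 2 and 3. Control 2 and control 3 correlated best with another number, so the replicate numbers were not taken to pair the samples. Control 1 correlated at -0.45 and -0.32 with ILK-K5 libraries 2 and 3. Control 3 correlated at -0.55 with ILK-K5 library 1 and at 0.50 with library 2. The deviations within a genotype sum to 0 for each gene, so a positive correlation with 1 library forces a negative one with another. These negative values therefore do not show that replicate 1 stood apart. Replicate 1 has its own number in the sample description. The main fit holds no term for that number. At 1 to 87 reads per library, Cdkn1c, Cdkn2b and Cdkn2c carry counting error as well as the spread between libraries. In the controls Cdkn2b had 1, 44 and 32 reads and Cdkn1c 2, 21 and 25. Cdkn2a is limited by the floor of 3 reads.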
